A study of Mus musculus with 31 samples.

Results

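The HSP70 and HSP110 chaperones described here are 10 mouse genes, chosen by name: Hspa1a, Hspa1b, Hspa1l, Hspa8, Hspa4, Hspa4l, Hsph1, Hspa9, Hspa13 and Hspa14. Each was found by its Entrez identifier among 20704 genes counted in ribosome-protected fragments (RPFs) and 24593 counted in total RNA, and all 10 were tested in both. RPFs, the stretches of mRNA that ribosomes shield from nuclease, and total RNA were sequenced from mouse skin squamous cell carcinoma (SCC) cells. The labels give the cells' genotype as HRasG12V with TgfbrIIfl/fl, where the study's list of cell lines gives HRasG12V with TgfbrII D/D for both lines, and in every group the endogenous Eif2s1 gene (eIF2α) was ablated and replaced by a myc-tagged lentiviral copy under the PGK promoter. That copy encodes either eIF2α with serine 51 (S51, ISR-competent) or the S51A protein (ISR-null), in which this serine cannot be phosphorylated and the integrated stress response (ISR) cannot start. S51 and S51A cells received DMSO (vehicle) or 100 nM bortezomib, a proteasome inhibitor, for 4.5 h by the labels. The S51 vehicle group had 3 RPF libraries, the 3 other groups had 4 each, and total RNA had 4 libraries per group. The lines are clones grown from single cells, the study pooled clones of a genotype in its results, and the clone behind each library is not given in the sources used here. A difference between S51 and S51A therefore cannot be told apart from a difference between clones, and as nothing in the labels says that the libraries of a group came from separate cultures, the p-values measure the spread between these libraries only.

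HSP70 proteins bind exposed hydrophobic stretches of unfolded proteins and release them in a cycle driven by ATP. J-domain proteins deliver the client and start hydrolysis, and nucleotide exchange factors, HSP110 proteins among them, open the cycle again. Cells keep a constitutive cytosolic HSP70 (HSC70) at high level and switch on inducible copies when misfolded proteins accumulate, as they do when the proteasome is blocked, through the transcription factor HSF1 and the heat shock elements it binds.

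The files name genes, and the reads of near-identical genes cannot all be told apart. Hspa1a (chr17:34969359-34972156, minus strand, GRCm38) and Hspa1b (chr17:34956429-34959238, minus strand) are single-exon genes of inducible HSP70 whose starts lie 12918 bases apart. Their coding sequences were 99.4% identical over 1929 aligned columns, with 8 substitutions and 3 gap columns, and the longest identical run was 638 bases. The following 60 bases of coding sequence, positions 1357 to 1416 counted from the A of the start codon, read in the direction of transcription from chr17:34970510-34970569 and chr17:34957592-34957651, are shown because they hold 2 of the differences, in capitals.
Hspa1a: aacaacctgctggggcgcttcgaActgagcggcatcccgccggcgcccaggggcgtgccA
Hspa1b: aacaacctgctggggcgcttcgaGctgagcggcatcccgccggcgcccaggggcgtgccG

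Of all 30-base windows within coding exons, about the length of an RPF, 8.87% of those of Hspa1a and 11.6% of those of Hspa1b occurred once in the genome. The share was 80.6% for Hspa1l, which shared 357 of its 1837 windows with Hspa1a, 78.3% for Hspa9, and 100% for Hsph1, Hspa4, Hspa4l, Hspa13 and Hspa14. For Hspa8 it was 3.27%, the rest having exact copies elsewhere in the genome. By the names of the deposited columns only uniquely mapping reads were kept, so the levels of Hspa1a, Hspa1b and Hspa8 set beside other genes are levels as counted, and the split of reads between Hspa1a and Hspa1b is uncertain.

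The promoters of the copies are also alike. In the 250 bases before the start, Hspa1a and Hspa1b matched at 247 positions. A pair of inverted heat shock element units, spelled TTCNNGAA or GAANNTTC and searched on both strands, was present in the 300 bases around the start (250 before to 50 after) of Hspa1a, Hspa1b and Hsph1, and in 15.1% of 32851 promoters of the RefSeq annotation of GRCm38.p6. It was not found in these windows of Hspa1l, Hspa4, Hspa4l or Hspa14. Promoters were matched for 7 of the 10 genes, and Hspa8, Hspa9 and Hspa13 were not analysed here. The starts used for Hsph1 and Hspa4l lie inside the annotated genes, which reach to chr5:149636498 (minus strand) and begin at chr3:40744500. In these genes the bases before the outermost annotated end were not searched in full. The 150 bases before the start are shown for the 3 genes that hold the pair, and for Hspa1l, whose start lies 547 bases from that of Hspa1a on the other strand, with the units of the pair in capitals. They come from chr17:34972157-34972306 (minus strand), chr17:34959239-34959388 (minus), chr5:149636337-149636486 (minus) and chr17:34972553-34972702 (plus).
Hspa1a: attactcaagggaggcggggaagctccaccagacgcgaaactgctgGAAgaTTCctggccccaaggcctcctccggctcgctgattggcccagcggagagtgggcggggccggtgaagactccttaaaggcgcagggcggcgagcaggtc
Hspa1b: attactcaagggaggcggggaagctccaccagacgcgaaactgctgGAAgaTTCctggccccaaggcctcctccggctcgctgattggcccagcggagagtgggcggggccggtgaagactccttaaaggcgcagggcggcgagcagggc
Hsph1: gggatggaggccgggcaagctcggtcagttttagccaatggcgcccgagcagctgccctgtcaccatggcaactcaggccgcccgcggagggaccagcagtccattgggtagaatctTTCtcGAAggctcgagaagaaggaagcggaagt
Hspa1l: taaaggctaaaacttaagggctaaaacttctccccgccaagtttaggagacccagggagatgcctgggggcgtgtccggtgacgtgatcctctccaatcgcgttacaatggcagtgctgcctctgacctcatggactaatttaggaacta
The pair begins 104 bases before the start in Hspa1a and Hspa1b, which hold 1 pair each. In Hsph1, pairs begin 33 bases before the start used here and 36 and 41 bases after it. From another annotated start of Hsph1 the same pairs begin at -54, 15 and 20. The Hsph1 windows also held 3 units in a row, found in 0.603% of the promoters and not in the windows of Hspa1a or Hspa1b. A match of letters is a description of the sequence, and binding was not measured.

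The RPF libraries held 1038826 to 4902237 counts each and the total RNA libraries 18758668 to 22994713, so RPF values rest on fewer reads and have wider errors. CPM is a count scaled to the TMM-adjusted size of its library. Keratinocyte markers other than Krt15 were high in every library, with Krt5 at least 11765 and Trp63 at least 220 CPM in RPF. Krt15 read 11.3 to 89.1 CPM in RPF. Col1a2 and Dcn (fibroblasts), Cd3e (T cells), Cdh5 (endothelium), Dct (melanocytes) and the germ cell genes Sycp3 and Acrv1 had 0 RPF counts throughout. Summed fibroblast markers reached at most 9.54 CPM and immune markers at most 16.9 CPM in RPF, nearly all from Pdgfra and Cd68. Total RNA of Eif2s1 differed by -0.07 on the log2 scale between the vehicle-treated lines (S51A minus S51) and its RPFs by 0.73 (adjusted p = 0.00234, edgeR), and gene counts do not tell the S51 from the S51A copy, so they check no label. S51 bortezomib and S51A vehicle columns were assigned by the series record, which notes that these titles were once exchanged.

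The family took a larger share of the counts with bortezomib in both lines, a comparison of ranges without a test. The 10 genes took 0.611 ± 0.0842% (SD, n = 3) of RPF counts in S51 vehicle and 1.74 ± 0.109% (n = 4) in S51 bortezomib, and 0.572 ± 0.0823% and 1.57 ± 0.12% (n = 4 each) in S51A cells. In total RNA the shares were 0.717 ± 0.0662% and 1.60 ± 0.0938% in S51, and 0.543 ± 0.047% and 1.23 ± 0.11% in S51A (n = 4 each). Hspa8 made up most of the counts in every group. Within each line, every bortezomib library lay above every vehicle library in both kinds of library.

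**Figure D1:**
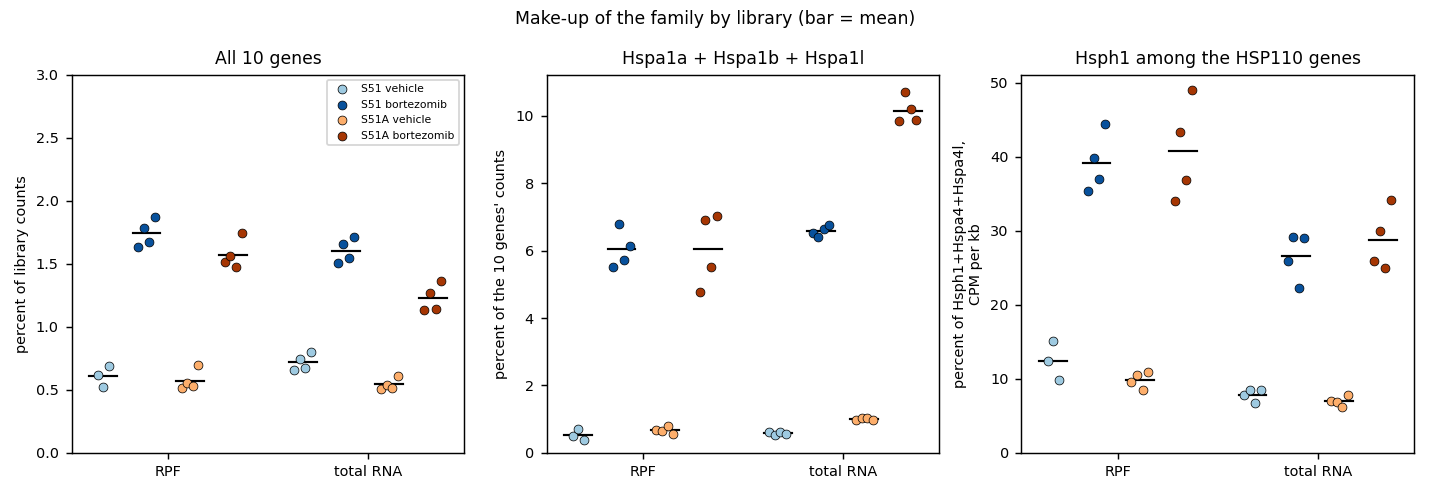
Share of counts by library in RPF and total RNA for the 10 genes (left, percent of all counts of the library), for Hspa1a, Hspa1b and Hspa1l together (middle, percent of the 10 genes' counts) and for Hsph1 among the 3 HSP110 genes (right, percent of their CPM per kilobase); points are libraries, bars are means, colours are the 4 groups. All bortezomib points lie above all vehicle points of their line, and in total RNA the middle panel is highest in S51A bortezomib.

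In S51 RPF, bortezomib over vehicle, 7 of the 10 genes were called higher and none lower, where 7.38% of the 9457 genes tested were called higher. A call needs an adjusted p below 0.05 (edgeR quasi-likelihood test, Benjamini-Hochberg over all genes tested) and a fold above 1.5 in RPF or 2 in total RNA. In S51A cells 6 were called higher and none lower, where 4.19% of genes were called higher. Of all RPF calls, 39.7% in S51 and 38.6% in S51A were higher and the rest lower. The lack of lower RPF calls among a few genes is not read as a result, here or in the partner lists below. In total RNA the counts were 4 higher and 1 lower in S51, where 1.96% and 3.02% of 11708 genes were called. They were again 4 higher and 1 lower in S51A, where 1.63% and 2.55% were. Hspa1a and Hspa1l passed the filter on low RPF counts only through their bortezomib libraries, so their RPF calls follow in part from that choice.

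Hspa1a, an inducible HSP70, had RPF counts of 1, 1 and 3 in the S51 vehicle libraries and 144, 96, 298 and 188 in S51 bortezomib. In S51A cells it had 1, 2, 9 and 8 with vehicle and 434, 349, 305 and 456 with bortezomib. The vehicle libraries of both lines were near 0 and no bortezomib library came close to them. With 5 counts in all S51 vehicle libraries and 726 in S51 bortezomib, the ratio of rates was 189 (95% exact counting interval 80.6 to 583, counting error only), and in S51A it was 114 (73.3 to 186). The fitted log2 fold changes were 7.43 and 6.78 and depend on the prior count at these levels.

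Total RNA of Hspa1a read 1.41, 1.02, 0.918 and 1.51 CPM in S51 vehicle and 159.7, 136, 177 and 156 CPM in S51 bortezomib (log2 fold change 7.01, SE 0.103, adjusted p = 9.2e-25). In S51A it read 2.60, 2.72, 2.46 and 2.63 CPM with vehicle and 290.3, 311, 316 and 285 CPM with bortezomib (log2 fold change 6.85, SE 0.0893, adjusted p = 5.06e-26). The groups did not overlap within a line, and every S51A library also lay above every S51 library of the same treatment.

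Hspa1b, the neighbouring copy that encodes nearly the same protein, was counted at higher levels. In RPF it read 30.1, 35.3 and 25.9 CPM in S51 vehicle against 776, 1107, 824 and 1036 CPM in S51 bortezomib (log2 fold change 4.96, SE 0.207, adjusted p = 2.24e-13). In S51A it read 34.6, 35.5, 38.6 and 36.7 CPM against 596, 929.8, 664 and 1077 CPM (log2 fold change 4.49, SE 0.176, adjusted p = 8.7e-14). Its total RNA went from 35.7 ± 2.25 to 971 ± 87.8 CPM in S51 and from 46.5 ± 3.28 to 981 ± 140.5 CPM in S51A (SD, n = 4 each), with log2 fold changes of 4.76 and 4.40. Vehicle and bortezomib ranges were far apart in both lines, and with bortezomib the ranges of S51 and S51A overlapped.

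Because reads between these copies may be split in error, their counts were also summed with those of Hspa1l. The sum rose by 5.08 on the log2 scale in S51 RPF (adjusted p = 7.69e-14, edgeR) and by 4.69 in S51A RPF (adjusted p = 1.44e-14). In total RNA it rose by 4.84 and 4.63. As counted, Hspa1a held 3.27 ± 0.666% of the total RNA counts of Hspa1a and Hspa1b together in S51 vehicle and 14.0 ± 2.03% in S51 bortezomib (SD, n = 4 each). In S51A its part was 5.32 ± 0.354% and 23.7 ± 2.84%. The 2 copies thus did not change in proportion as counted.

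Hspa1l, a testis-enriched HSP70 that lies head to head with Hspa1a, was called lower in total RNA and higher in RPF in both lines, which none of the other members was. Hspa1l passed the RPF count filter only through bortezomib libraries, so the direction of its RPF call follows in part from that filter. Its total RNA read 1.86, 2.55, 3.08 and 1.93 CPM in S51 vehicle and 1.06, 0.964, 1.21 and 1.23 CPM in S51 bortezomib (log2 fold change -1.07, SE 0.196, adjusted p = 4.52e-05), and in S51A 2.33, 2.68, 2.66 and 3.20 CPM with vehicle against 1.09, 1.18, 1.36 and 0.914 CPM with bortezomib (log2 fold change -1.26, SE 0.191, adjusted p = 4.68e-06). All bortezomib libraries lay below all vehicle libraries of their line. The S51 value rests in part on vehicle replicate 3, without which it was -0.92 and no longer past the fold limit.

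RPF counts of Hspa1l were 1, 1 and 1 in S51 vehicle and 7, 9, 13 and 9 in S51 bortezomib, and in S51A 0, 0, 0 and 2 with vehicle against 14, 14, 2 and 13 with bortezomib. The ratio of rates was 16.5 in S51 (95% exact counting interval 5.23 to 83.4) and 31.6 in S51A (8.24 to 269.5). Of its 30-base coding windows, 357 of 1837 occur also in Hspa1a and 309 in Hspa1b. Under a strict limit to unique reads, those that match 2 genes exactly would not be kept. The column names do not define unique, and Hspa8, with 3.27% of its windows single-copy, was still the most highly counted member. Over the same libraries, RPF counts of Hspa1a rose from 20 or fewer per group to at least 726. Those of Hspa1b rose from 516 or fewer per group to at least 6250. The part of reads from Hspa1a or Hspa1b in the counts of Hspa1l was not tested.

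**Figure D2:**
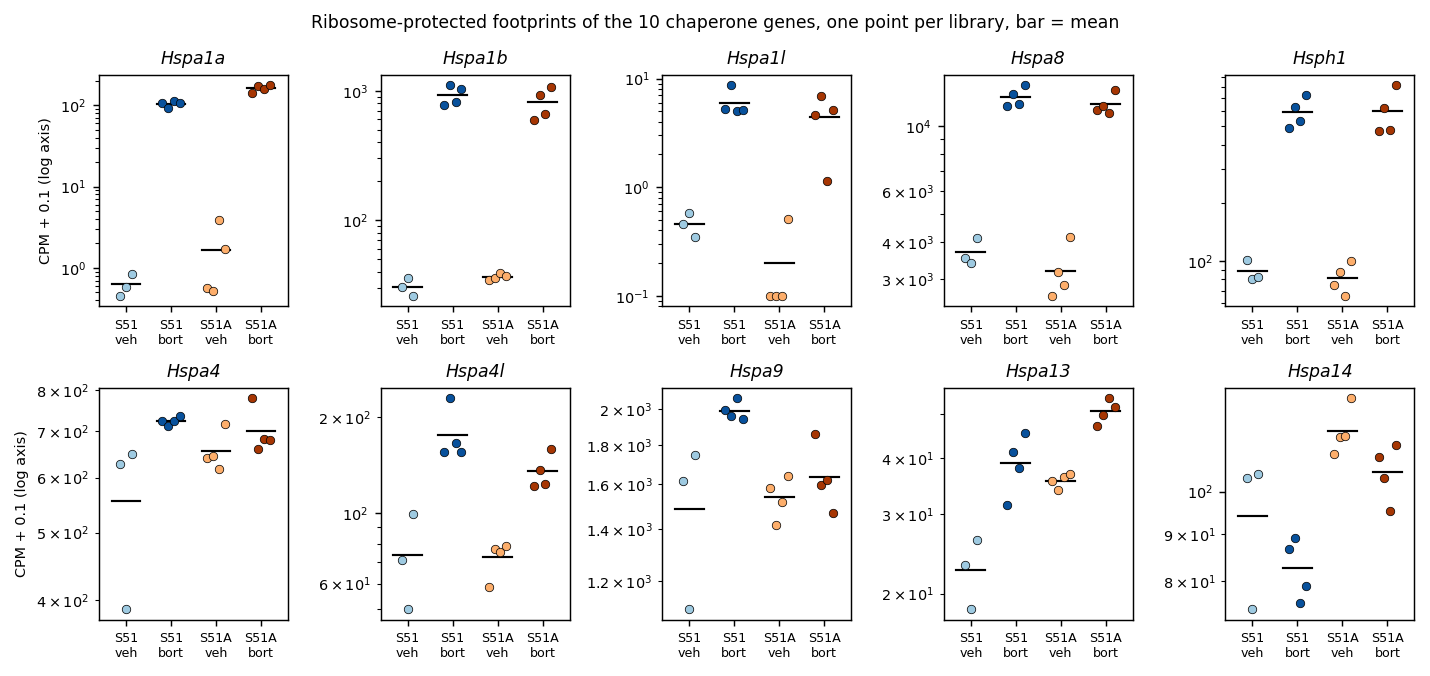
RPF level of each gene by group (CPM plus 0.1 on a log axis, 1 point per library, bars are means). Hspa1a, Hspa1b, Hspa8 and Hsph1 separate by treatment in both lines, while Hspa4, Hspa9 and Hspa14 move little, and 1 S51 vehicle library (replicate 2) is the lowest point for Hspa4, Hspa4l, Hspa9, Hspa13 and Hspa14.

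Hspa8 encodes HSC70, the constitutive cytosolic HSP70 that serves folding, clathrin uncoating and chaperone-mediated autophagy. It was the most highly counted gene of the family per kilobase in every group, at 1966 ± 208 RPF CPM per kilobase of counted coding sequence in S51 vehicle, ahead of Hspa9 at 752 ± 172 and Hspa4 at 225 ± 58.6 (SD, n = 3 each), as counted. The vehicle ranges of these 3 genes did not overlap. Further down the order, Hsph1 at 34.9 ± 4.57 and Hspa4l at 29.9 ± 10.1 overlapped, as did Hspa13 at 16.6 ± 2.88 and Hspa1b at 16.3 ± 2.52. With bortezomib Hspa1b moved to the third place, at 501 ± 85.9 in S51 and 437 ± 121 in S51A (n = 4 each).

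RPF of Hspa8 read 3542, 3406 and 4143 CPM in S51 vehicle and 11689.7, 12873, 11918 and 13819 CPM in S51 bortezomib (log2 fold change 1.77, SE 0.121, adjusted p = 3.55e-10). In S51A cells it read 2622, 3152, 2861 and 4156 CPM with vehicle and 11356, 11722, 11087 and 13319 CPM with bortezomib (log2 fold change 1.89, SE 0.11, adjusted p = 5.03e-11). The constitutive gene thus rose in both lines by a smaller fold than Hspa1b, and from a far higher count. In total RNA it rose from 4131 ± 591 to 12293 ± 913 CPM in S51 and from 2661 ± 388 to 8294 ± 990.1 CPM in S51A (SD, n = 4 each), by 1.57 and 1.64 on the log2 scale.

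The HSP110 genes Hsph1 (HSP105), Hspa4 (APG-2) and Hspa4l (APG-1) encode the exchange factors that release ADP from HSP70. Hsph1, the stress-inducible one, read 101, 79.8 and 82.6 RPF CPM in S51 vehicle and 489, 633, 534 and 724 in S51 bortezomib (log2 fold change 2.76, SE 0.191, adjusted p = 3.9e-10). In S51A it read 74.8, 86.8, 65.6 and 99.6 with vehicle against 474, 622, 479 and 819 with bortezomib (log2 fold change 2.85, SE 0.17, adjusted p = 6.42e-11). Its total RNA rose by 2.50 in S51 and 2.69 in S51A on the log2 scale. In each line all bortezomib libraries lay above all vehicle libraries, and the lines overlapped within each treatment.

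Hspa4l rose less, from 71.2, 49.8 and 99.3 to 155, 229, 166 and 155 RPF CPM in S51 (log2 fold change 1.22, SE 0.179, adjusted p = 2.19e-05) and from 58.4, 77.1, 75.1 and 78.9 to 122, 136, 123 and 159 in S51A (log2 fold change 0.89, SE 0.161, adjusted p = 0.000352). Its total RNA changed by 0.98 (SE 0.0623) and 0.87 (SE 0.0628), with adjusted p = 1.61e-12 and 2.46e-11 by edgeR, under the limit of 2-fold for total RNA and over 1.5-fold. Without S51 bortezomib replicate 1 the S51 value was 1.02 and past 2-fold. Hspa4, the most highly counted HSP110, stayed under 1.5-fold. It read 626, 388 and 649 RPF CPM in S51 vehicle and 723, 711, 724 and 735 in S51 bortezomib (log2 fold change 0.38, adjusted p = 0.0225 by edgeR), and in S51A the value was 0.10 (adjusted p = 0.601). The S51 ranges did not overlap, and without S51 vehicle replicate 2, the library with the lowest value, the S51 change was 0.18.

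The make-up of the HSP110 group moved with treatment. Of the summed RPF CPM per kilobase of the 3 genes, whose windows were all single-copy, Hsph1 held 12.4 ± 2.69% in S51 vehicle (n = 3) and 39.1 ± 3.96% in S51 bortezomib, and 9.87 ± 1.10% and 40.8 ± 6.70% in S51A (n = 4 each). Per kilobase of transcript in total RNA, the same part went from 7.84 ± 0.802% to 26.6 ± 3.27% and from 6.97 ± 0.663% to 28.7 ± 4.19%. The region over which total RNA was counted is not given in the sources used here, so these last values assume whole transcripts.

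The mitochondrial, microsomal and ribosome-associated members stayed under 1.5-fold in RPF, apart from Hspa13 in S51. Hspa9 encodes mortalin, the mitochondrial HSP70 that pulls proteins through the inner membrane. Its RPF read 1615, 1105 and 1749 CPM in S51 vehicle and 1995, 1962, 2066 and 1945 in S51 bortezomib (log2 fold change 0.42, adjusted p = 0.00717 by edgeR), and in S51A 1584, 1421, 1519.7 and 1638 with vehicle against 1856, 1595, 1622 and 1472 with bortezomib (log2 fold change 0.09, adjusted p = 0.61). The S51 groups did not overlap and the S51A groups did, and without S51 vehicle replicate 2 the S51 change was 0.25. Its total RNA differed by 0.38 and 0.20 with SEs of 0.0276 and 0.0276, past the adjusted p and under the fold limit.

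Hspa13 encodes STCH, an HSP70 of the microsomal fraction that lacks the substrate-binding part. It read 23.03, 18.4 and 26.1 RPF CPM in S51 vehicle and 31.3, 41.1, 37.8 and 45.4 in S51 bortezomib (log2 fold change 0.76, SE 0.15, adjusted p = 0.000577). In S51A it read 35.5, 33.8, 36.1 and 36.7 with vehicle against 47.0, 49.7, 54.1 and 51.8 with bortezomib (log2 fold change 0.51, adjusted p = 0.00431 by edgeR), which stayed under 1.5-fold. The treatment groups did not overlap in either line. Total RNA changed by 0.18 in S51 and 0.48 in S51A.

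Hspa14, which with a J-domain partner forms the ribosome-associated complex, read 103, 74.5 and 104 RPF CPM in S51 vehicle and 86.6, 89.0, 75.6 and 79.0 in S51 bortezomib (log2 fold change -0.21, adjusted p = 0.183 by edgeR). In S51A it read 109.8, 114, 115 and 126 with vehicle against 109, 103, 95.2 and 112 with bortezomib (-0.15, adjusted p = 0.339). The treatment groups overlapped in both lines. Its total RNA, 108 ± 4.08 CPM in S51 vehicle and 95.4 ± 2.08 CPM in S51 bortezomib (SD, n = 4 each), differed by -0.17 on the log2 scale (adjusted p = 0.000886 by edgeR).

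**Figure D3:**
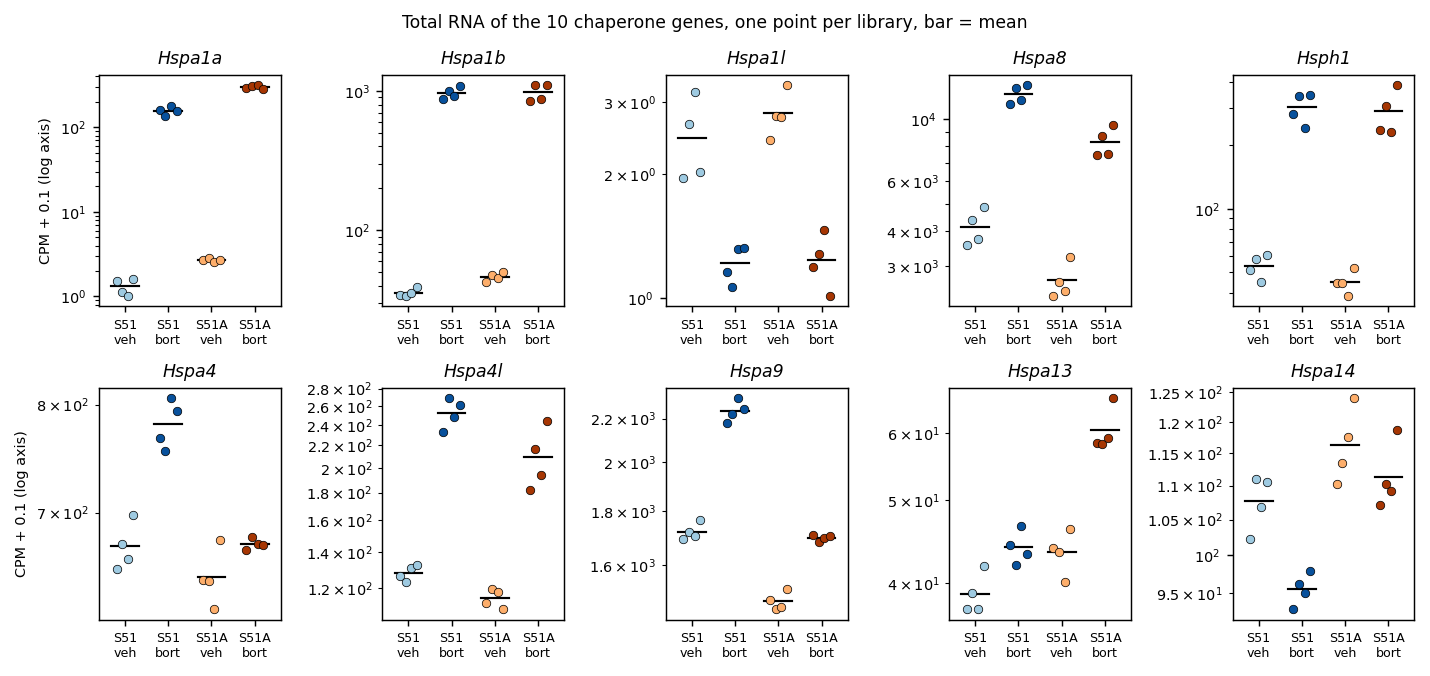
Total RNA level of each gene by group (CPM plus 0.1 on a log axis, 1 point per library, bars are means). Hspa1l falls with bortezomib in both lines, Hspa8 is lower in S51A than in S51 within each treatment, and Hspa1a is higher in S51A.

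Translational efficiency (TE) asks whether RPFs moved beyond the RNA. The test was an interaction term, RPF against total RNA by group, in 1 model over 31 libraries. By the study's account both kinds of library came from the same lysates, and this model did not pair them. Hspa1l was the 1 gene of the 10 called in each line, where 5.27% of 9457 genes were called in S51 and 0.983% in S51A. Its log2 TE change was 5.08 in S51 (SE 0.672, adjusted p = 7.76e-07 by edgeR) and 6.14 in S51A (SE 0.682, adjusted p = 4.04e-08), on the few RPF counts given above, and DESeq2 gave it no adjusted p. As Hspa1l entered the fit only through bortezomib RPF libraries, the direction of this TE change follows in part from the filter. Summed with Hspa1a and Hspa1b, the TE change was 0.25 in S51 (adjusted p = 0.515) and 0.06 in S51A (adjusted p = 1). Hspa1l gave 38 RPF counts in S51 bortezomib and Hspa1b 6250, so the sum mostly reflects Hspa1b and does not check the value of Hspa1l.

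None of the other induced genes was called for TE. For Hspa8 the ratios of same-numbered libraries were 0.994, 0.779 and 1.11 in S51 vehicle and 1.03, 0.996, 1.02 and 1.05 in S51 bortezomib, with a TE change of 0.19 (95% interval -0.14 to 0.52). In S51A they were 1.12, 1.19, 1.17 and 1.29 with vehicle and 1.53, 1.34, 1.47 and 1.40 with bortezomib, which did not overlap, with a TE change of 0.25 (-0.07 to 0.57, adjusted p = 0.901 by edgeR). For Hsph1 the change was 0.26 (-0.26 to 0.78) in S51 and 0.15 (-0.34 to 0.63) in S51A, and the S51A ratios, 1.69, 1.96, 1.70 and 1.90 with vehicle and 1.997, 2.02, 2.07 and 2.13 with bortezomib, did not overlap. For Hspa1b it was 0.21 (-0.26 to 0.68) and 0.09 (-0.32 to 0.50), so a TE change near 1.5-fold lies inside or close to these intervals.

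Hspa13 came next to the limit. Its ratios were 0.62, 0.474 and 0.703 in S51 vehicle and 0.708, 0.982, 0.813 and 1.05 in S51 bortezomib, which did not overlap, and in S51A 0.811, 0.78, 0.903 and 0.796 with vehicle against 0.808, 0.856, 0.917 and 0.788 with bortezomib, which did. The TE change was 0.57 in S51 (adjusted p = 0.00886 by edgeR, just under 1.5-fold) and 0.03 in S51A (adjusted p = 1). The difference between the lines was -0.54 (95% interval -0.91 to -0.16, adjusted p = 0.163), which did not pass the test. The S51 value ranged from 0.47 to 0.71 on leaving out each library. It passed 1.5-fold without S51 vehicle replicate 3 or S51 bortezomib replicate 1 or 3, and its adjusted p rose to 0.0508 without S51 vehicle replicate 2 and 0.0608 without S51 bortezomib replicate 4. With RPF and RNA of a lysate as a block it was also above 0.05.

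**Figure D4:**
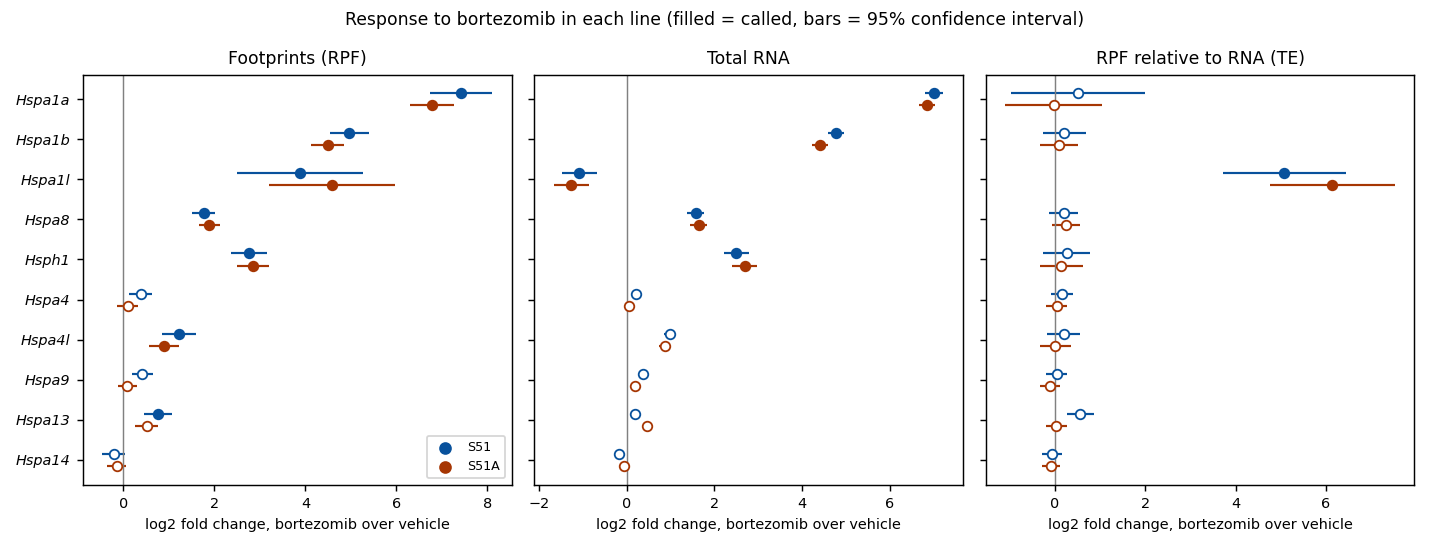
Log2 fold change of bortezomib over vehicle for each gene in S51 (blue) and S51A (brown), in RPF, total RNA and RPF relative to RNA (TE), with 95% confidence intervals derived from the fitted p-values. Filled points are called. S51 and S51A intervals overlap for every gene in RPF. They do not overlap for Hspa4, Hspa9 and Hspa13 in total RNA or for Hspa13 in TE. Hspa1l, with few RPF counts and past the filter only through bortezomib libraries, is the gene called in TE.

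Whether the response needs eIF2α phosphorylation is asked by the difference between the lines' responses, S51A minus S51. None of the 10 genes was called for it in RPF, total RNA or TE, where 1.86%, 0.478% and 1.29% of genes were called. At an unadjusted p below 0.05, 1 of the 10 passed in RPF, 4 in total RNA and 1 in TE, and DESeq2 also called none. The share of all genes at this unadjusted limit is not given here, so these counts cannot be set against the shares above. In RPF the difference was 0.13 for Hspa8 (95% interval -0.20 to 0.45), 0.10 for Hsph1 (-0.41 to 0.60) and -0.47 for Hspa1b (-1.0 to 0.05). The interval of Hspa1a was wide, -2.07 to 0.78 around -0.64, so a difference of 2-fold cannot be told from none at this depth.

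In total RNA, where errors were smaller, 4 genes passed the adjusted p below the fold limit. The share of all genes that did so is not given here. The response of S51A was lower for Hspa1b (-0.36, adjusted p = 0.027 by edgeR), Hspa9 (-0.18, adjusted p = 0.00182) and Hspa4 (-0.16, adjusted p = 0.0133), and higher for Hspa13 (0.29, adjusted p = 0.00744). Each is less than 1.5-fold. The adjusted p of Hspa1b rose to as much as 0.0628 (edgeR) on leaving out a library. For Hspa1b the lines overlapped with bortezomib, while with vehicle every S51A library lay above every S51 library. Hspa8 and Hspa1a did not pass, at 0.07 (-0.20 to 0.33) and -0.16 (-0.59 to 0.27).

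Levels were also compared between the lines under each treatment. These comparisons share libraries with those above. With vehicle, 1 of the 10 genes was called in RPF (Hspa13, higher in S51A) and 1 in total RNA (Hspa1a, higher in S51A), where 15.8% and 7.87% of genes were called. With bortezomib, 1 was called in RPF (Hspa1a, higher in S51A) and 0 in total RNA, where 17.7% and 8.28% were. Of the 10 genes, 7 had an unadjusted p below 0.05 for this last comparison in total RNA, and DESeq2 also called 0. The share of all genes at that unadjusted limit is not given here, so the count of 7 is not a trait of these genes.

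Hspa1a total RNA was higher in S51A by 1.09 on the log2 scale with vehicle (adjusted p = 4.63e-05, edgeR) and by 0.93 with bortezomib (adjusted p = 2.91e-13), the latter just under 2-fold. In RPF with bortezomib the difference was 0.62 (adjusted p = 0.00155), and all S51A libraries lay above all S51 libraries. It fell under 1.5-fold, to 0.58 without S51 bortezomib replicate 2 and 0.58 without S51A bortezomib replicate 4. The vehicle value in total RNA was 0.98 without S51 vehicle replicate 3, under 2-fold. When Hspa1a, Hspa1b and Hspa1l were summed, neither comparison of the lines was called in total RNA (0.40 with vehicle and 0.18 with bortezomib) or in RPF (0.30 and -0.09).

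Hspa8 showed the opposite order in total RNA. S51A minus S51 came to -0.63 with vehicle (SE 0.0921, adjusted p = 1.91e-06, edgeR) and -0.57 with bortezomib (SE 0.0918, adjusted p = 7.79e-06), with no overlap of the lines under either treatment and under 2-fold in both. In RPF the differences were -0.21 (adjusted p = 0.181) and -0.08 (adjusted p = 0.596), and the lines overlapped. The ratio of RPF to RNA CPM was 1.03, 0.996, 1.02 and 1.05 in S51 bortezomib and 1.53, 1.34, 1.47 and 1.40 in S51A bortezomib, a difference between lines that was not tested.

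Among the remaining members, Hspa13 RPF was higher in S51A by 0.63 with vehicle (adjusted p = 0.0021, edgeR) and 0.37 with bortezomib (adjusted p = 0.0328), and the vehicle value fell to 0.52 without S51 vehicle replicate 2, under 1.5-fold. Its total RNA differed by 0.16 and 0.46. Hspa14 RPF was higher in S51A by 0.30 and 0.36, and Hspa9 total RNA differed by -0.22 and -0.40 (S51A minus S51), all past the adjusted p and under the fold limit. On leaving out a library, the adjusted p (edgeR) of Hspa14 RPF rose to as much as 0.175 with vehicle and 0.0694 with bortezomib. That of Hspa13 RPF with bortezomib rose to as much as 0.113.

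The partners of HSP70 were described from 5 lists, by bortezomib over vehicle as log2 fold changes. Of 11 J-domain partners, 10 were tested in RPF and 5 were called higher and 0 lower in S51, with the same counts in S51A, and 5 of 11 were called higher in total RNA in each line, against 7.38% and 4.19% of all genes in RPF and 1.96% and 1.63% in total RNA. The median RPF log2 fold change was 0.89 in S51 and 1.01 in S51A, and over all genes it was 0.00 and -0.01. The largest in S51 RPF were Dnaja1 (2.51), Dnajb1 (1.81), the stress-inducible HSP40 that hands clients to HSP70, and Dnajb4 (1.80). In S51A these read 2.16, 1.91 and 1.68. Dnajb2 and Dnaja4 were also called, at 1.80 and 1.25 in S51.

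Of 10 exchange factors outside the HSP110 group, 1 was called in S51 RPF: Bag3, which links HSP70 to selective autophagy, at 1.73 in S51 and 2.01 in S51A. That count is near the 7.38% of all genes called higher. In S51A, Bag5 was called lower in RPF (-0.84). The list's median RPF change in S51 was 0.05. Bag6, named with Bag5 after their values were seen, had a called TE change of -0.66 in S51, with total RNA at 0.71 and RPF at 0.03.

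Of 8 adaptors and client-handover factors, 4 were called higher in S51 RPF and 5 in S51A, and none lower, where 7.38% and 4.19% of all genes were called higher. The median RPF changes were 0.57 and 0.60. Hsp90aa1, the inducible cytosolic HSP90, read 1.99 in S51 and 1.43 in S51A. Chordc1, an HSP90 cochaperone, read 1.35 and 1.02, and Stip1 (HOP), which joins HSP70 to HSP90, 0.93 and 0.88. Hsp90ab1, the constitutive HSP90, rose by 1.27 in S51 total RNA and had an RPF change of 0.34 and a called TE change (-0.94, SE 0.0791, adjusted p = 2.14e-11 by edgeR). Its TE response differed between the lines (0.61, adjusted p = 0.00145).

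Of 4 heat shock transcription genes, 3 were tested and Hsf2 was called higher in both lines (1.09 in S51 and 1.18 in S51A RPF). Hsf1, the main regulator of inducible HSP70, had total RNA changes of -0.09 and -0.02 and RPF changes of -0.52 (adjusted p = 0.0343 by edgeR, under 1.5-fold) and -0.30. Hsbp1 read 0.03 and 0.20. Of 5 HSP70 superfamily genes that the list of 10 leaves out, 3 were tested in RPF. Hspa5 (BiP of the endoplasmic reticulum) was called at 1.70 and 1.19 and Hspa2 at 1.05 and 0.80, while Hyou1, the HSP110 of the endoplasmic reticulum, read 0.58 and 0.46. Hspa12b was tested in total RNA only, at -0.05 and -0.56, and Hspa12a and Hsf4 had too few counts to test in either.

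**Figure D5:**
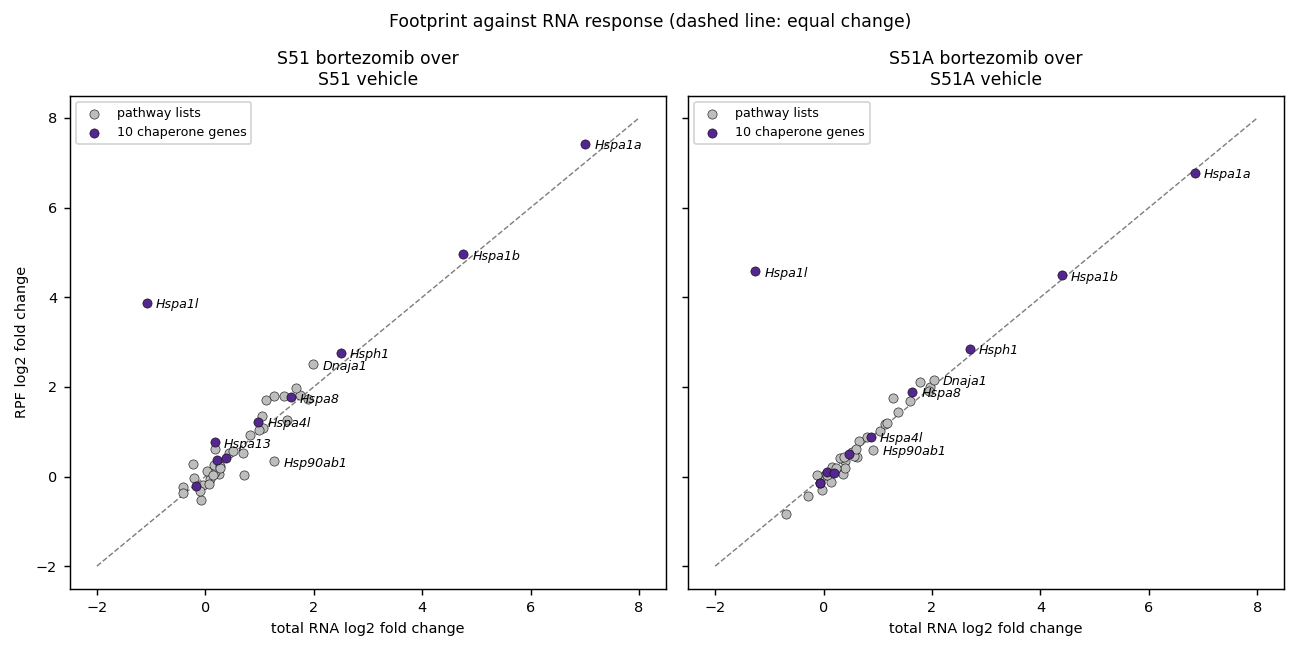
RPF against total RNA log2 fold change of bortezomib over vehicle in S51 (left) and S51A (right) for the 10 chaperone genes (purple) and the genes of the 5 partner lists (grey), with the line of equal change dashed. Hspa1l, which rests on few RPF counts and passed the filter only through bortezomib libraries, lies far above the line in both panels. Hsp90ab1 lies below the line in S51.

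Genes whose total RNA followed Hspa1b most closely over the 16 libraries were Trp53inp1 (Pearson r = 0.997 of log2 CPM), Zfand2a (0.997), Ccdc117 (0.996), Pmaip1 (0.996) and Dnaja1 (0.995). For Hspa8 they were Chordc1 (0.991), Mreg (0.989), Glrx3 (0.988), Canx (0.987) and Gtf3c1 (0.987). The 16 libraries fall into 4 groups, so these values mostly describe a shared difference between groups. Only Dnaja1 and Chordc1 of these 10 genes were in the lists above. In RPF the same pairs gave 0.977 for Trp53inp1 and 0.937 for Chordc1 over 15 libraries, and 0.745 for Mreg.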

How the data were processed

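Ribosome-protected fragments and total RNA were sequenced as single reads of 100 bases from 31 libraries of mouse SCC cells. The authors deposited raw counts per gene (Entrez identifiers). By the study's methods, reads were trimmed with FastX trimmer, aligned to mm10 with bowtie2 and counted with plastid, RPFs within the coding sequence without its first 15 and last 5 codons. The column names record removal of ribosomal RNA, masking of repeats, marking of duplicates and a restriction to unique reads, and the submitters' processing notes also name featureCounts and DESeq2. Tool versions are not given in the sources used here.

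Genes passed edgeR's filterByExpr (minimum count 10, minimum total 15), libraries were scaled by TMM, and all groups of an assay entered 1 quasi-likelihood fit (edgeR 4.0.16, limma 3.58.1, R 4.3.3). TE was an interaction term in 1 fit over both assays. Calls needed a Benjamini-Hochberg adjusted p below 0.05 over all genes tested and over 1.5-fold (RPF, TE) or 2-fold (total RNA). Tables and figures used Python 3.11.15, pandas 2.3.3, scipy 1.17.1 and matplotlib 3.10.9. CPM values divide a count by the library's total over the genes tested times its TMM factor, and shares of counts use the total over all genes. Exact counting intervals (95%) cover counting error only. The alternatives were DESeq2 1.42.0, other scalings, no count filter, a replicate block, summed copies, fits on the compared groups alone, a fold limit of 1.5 for total RNA, and leaving out each library. The fit was tested on simulated data with the same fixed dispersion for every gene, in which only genes above a count limit were changed. For S51 bortezomib over S51 vehicle in RPF (9368 genes), 100% of genes raised 4-fold and 92% of genes raised 2-fold were called. In total RNA (11612 genes) these shares were 100% and 56%, the limit there being 2-fold itself. They do not give the power for low-count members or for the spread of the real libraries.

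All 10 members are named. From each partner list, the 3 genes with the largest called change in each direction in S51, and all genes of lists under 8 members, are named, as are the 5 genes most like Hspa1b and Hspa8. The members and lists were chosen with earlier results of these data known. Genes named outside the rule were chosen after their values were seen (Bag5, Bag6, Dnaja4 and Dnajb2). Sequences, positions and window counts come from RefSeq and the GRCm38.p6 assembly.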

Additional observations from a re-analysis of the deposited data

Results flagged for a closer look

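In groups of 4 libraries, 4 of 70 values tested by the gap of the end library to its nearest neighbour passed Dixon's 95% critical value, and chance gives about 1 in 20. Hspa13 total RNA was 65.7 CPM in S51A bortezomib replicate 4, above the 3 other libraries of its group. Hspa4l RPF was 228.6 CPM in S51 bortezomib replicate 2, also the highest of its group. Hspa1l RPF was 8.61 CPM in S51 bortezomib replicate 2, which is 9 counts, and 0.406 CPM in S51A vehicle replicate 4, which is 2 counts where the other libraries had 0.

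The total RNA response to bortezomib differed between S51A and S51 by the interaction term of the edgeR fit for 4 of the genes, none past the fold limit. The differences, S51A minus S51 on the log2 scale, were -0.36 for Hspa1b, -0.16 for Hspa4, -0.18 for Hspa9 and 0.29 for Hspa13. That of Hspa1b reached an adjusted p of 0.0628 (edgeR) on leaving out a library.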

How the results depend on the processing

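Counts below are of the 10 members called. With a fold limit of 1.5, total RNA calls between the lines were 2 with vehicle and 1 with bortezomib. With library sizes alone, calls between the lines with bortezomib fell to 0 in RPF and TE calls in S51 rose to 2, and the log2 values of Hspa4 in S51A total RNA (-0.057), Hspa14 in S51 TE (0.094) and Hspa1a in S51A TE (0.063) changed sign. This scaling moved the median of all genes by -0.154 in S51 and -0.116 in S51A total RNA and by 0.155 in S51 TE. The share of calls that were higher went from 39.4% to 21.8%, from 39.1% to 26.5% and from 19.7% to 61.4%, and in the TE response difference from 83.6% to 62.2%. With Hspa1a, Hspa1b and Hspa1l summed, 3 were called in total RNA in each line and 0 between the lines (RPF bortezomib, total RNA vehicle) or in TE of either line. The sum's own log2 difference between the lines was -0.089 in RPF with bortezomib and 0.40 in total RNA with vehicle. With only the groups compared, TE calls in S51A were 0, as Hspa1l then missed the count filter, and DESeq2 gave 0 TE calls in both lines, with no adjusted p for Hspa1l. Leaving out each library gave 0 to 1 calls between the lines in RPF (either treatment) and in total RNA with vehicle, and 1 to 2 TE calls in S51. The log2 values that changed sign on leaving out a library ranged from -0.093 to 0.21 (Hsph1 RPF response difference), from -0.019 to 0.17 (Hspa8 total RNA response difference), and in S51 TE from -0.036 to 0.27 (Hspa4), -0.13 to 0.15 (Hspa9) and -0.20 to 0.023 (Hspa14). In S51A TE they ranged from -0.47 to 0.60 (Hspa1a), -0.013 to 0.15 (Hspa1b), -0.028 to 0.077 (Hspa4), -0.048 to 0.078 (Hspa4l) and -0.0077 to 0.073 (Hspa13). The causes were not tested. Of the other single-gene values, 1472 kept direction and side of the threshold, 6 lost and 9 gained a call.

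Over all genes, the fold limit of 1.5 raised total RNA calls from 584 to 1790 (S51), 489 to 1535 (S51A), 56 to 245 (response difference), 922 to 2053 (vehicle lines) and 970 to 2337 (bortezomib lines). DESeq2 gave 23 in place of 56 for the total RNA and 207 in place of 122 for the TE response difference. Without S51 vehicle replicate 3, TE calls in S51 were 832 in place of 498. Leaving out libraries gave 99 to 383 RPF response differences in place of 176, and 77 to 250 in TE in place of 122. Nothing in the labels says that a replicate number marks a shared day or culture, and not every pair of same-numbered libraries correlated above 0.1 in its deviations from the group means (-0.158 to 0.261 in RPF, median 0.0325, and 0.00213 to 0.191 in total RNA, median 0.0922), so the pairing was left out of the fit. In the data, however, 11 of 15 RPF and 15 of 16 total RNA libraries correlated best with their own number, and Hsph1 and Hspa8 total RNA were highest in replicate 4 of all 4 groups. The p-values above, those of the total RNA response differences included, do not account for a shared effect of replicate number. With the replicate block, members' calls stayed at 7 and 6 in RPF, 5 and 5 in total RNA, and 0 for each response difference. In TE, where the block was the lysate (same-numbered libraries of a group), calls stayed at 1 and 1. The TE response differences over all genes then went from 122 to 64. Depth limits Hspa1a and Hspa1l in RPF, whose vehicle groups held 2 to 20 counts.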
